A study of Mus musculus with 100 samples.

Results

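The IL-6, IL-10 and gp130 cytokine loci comprised 8 mouse genes: the cytokines Il6, Il10, Lif and Osm, and the receptor chains Il6ra, Il6st (encoding gp130), Il10ra and Il10rb. Members were all regions, in 15 deposited tables of chromatin immunoprecipitation sequencing (ChIP-seq) tag counts, whose nearest annotated transcription start site belonged to 1 of these genes. This gave 962 of 610301 listed regions, for 8 of 18524 genes. Il6 had 194 regions over the 15 tables, Il6st 167, Il10 158, Il10rb 111, Lif 107, Il6ra 92, Il10ra 79 and Osm 54. Grouping regions that lay within 500 bp of each other across tables gave 173 separate elements. A region was listed because a peak was called there in at least 1 condition, and its nearest gene is a label of position that does not show which gene it regulates.

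IL-6, leukemia inhibitory factor (LIF) and oncostatin M (OSM) signal through receptors that share gp130, which activates JAK kinases and STAT3. IL-6 first binds the chain encoded by Il6ra, while IL-10 uses a receptor of its own, with a ligand-binding chain encoded by Il10ra and a chain encoded by Il10rb that other cytokines of the IL-10 family also use. In macrophages, Toll-like receptor 4 (TLR4) is known to induce Il6 through NFκB, and secreted IL-10 restrains the inflammatory response.

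The study asked how TLR4 signaling redirects NCoR, a corepressor that binds the histone deacetylase HDAC3, and PGC1β, a coactivator. The cells were bone marrow-derived macrophages (BMDMs) from C57BL/6 mice aged 8 to 12 weeks. They were given vehicle (Veh) or KLA (Kdo2-lipid A, a TLR4 agonist, 100 ng/mL), and labels of KLA libraries that hold a time give 6 h. NCoR, HDAC3, p65 (a subunit of NFκB), Fosl2 (a member of AP-1), PU.1 (a lineage factor of macrophages), PGC1β, the kinase ERK1 and the acetyltransferase p300 were mapped in wild-type cells with Veh and KLA. The p300 Veh libraries are labelled as 0 h of KLA. Veh libraries of NCoR, HDAC3, p65, Fosl2 and PU.1 are labelled as 6 h of Veh, and those of PGC1β and ERK1 give no time. In further wild-type libraries PGC1β was mapped with DMSO and Veh, DMSO and KLA, or KLA and an ERK inhibitor (ERKi, LY3214996), and NCoR was mapped with KLA and the ERK inhibitor. ERK1 and p300 were also mapped in bone marrow cells at day 0 and day 4 of osteoclast differentiation. Per the study's methods, precursors grown with the growth factor M-CSF were given M-CSF and RANKL, a factor needed for osteoclast differentiation, until day 4. H3K27ac, the acetylated form of lysine 27 of histone H3 that active enhancers and promoters carry, was mapped with Veh and KLA in 3 designs. The first compared NCoR flox/flox cells (WT) with NCoR flox/flox, LysMCre cells (NKO). The second compared wild-type cells given DMSO with Veh, DMSO with KLA, or KLA with the HDAC3 inhibitor RGFP966. The third compared Pgc1b flox/flox with Pgc1b flox/flox, LysMCre cells. LysMCre deletes in the myeloid lineage, and H3K27ac tags do not show how many cells kept the floxed allele. Every group had 2 libraries, and 70 of 100 samples had a column in the tables. Total tags ran from 4.30 to 21.5 M a library, and 2.79% to 52.8% of them lay in the listed regions.

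Values are tags per 10 M total tags, given for replicate 1 and then replicate 2. A difference was called where edgeR's quasi-likelihood test gave a Benjamini-Hochberg adjusted p under 0.05 over all regions of the table and the change was over 2-fold. Called regions are described as having risen or fallen, and log2 fold changes are given with their standard errors. The labels do not say that every replicate came from a separate animal, so p-values measure the spread between these libraries. Where ChIP signal differs between bulk samples, fewer cells with a bound site and less protein per site cannot be told apart. All 8 macrophage marker genes had an NCoR and a p300 region within 2 kb of their start site, while 0 of 4 T cell markers did. In the same window, 1 of 4 markers each for B cells (Ms4a1), neutrophils (S100a8) and stroma (Pecam1) had such a region. Of 6 osteoclast markers, 4 had an NCoR region there (Acp5, Ctsk, Nfatc1 and Ocstamp) and 4 a p300 region (Ctsk, Dcstamp, Nfatc1 and Ocstamp).

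Sequences of 300 bases centred on 9 elements that the results turn on are shown here on the plus strand of mm10 (GRCm38.p6), chosen to show elements that gained and elements that lost binding. Capitals mark matches, on either strand, to the NFκB consensus, to AP-1 (TGANTCA), C/EBP (TTGCNNAA), PU.1 (GAGGAAGT) or STAT (TTCNNNGAA), or to an IRF consensus. No match in these windows overlapped a match to another motif. The promoter of Il6 (chr5:30012801-30013100), an intergenic element 64.7 kb upstream of it (chr5:29948224-29948523) and another 132.8 kb upstream (chr5:29880163-29880462) bound more p65 after KLA:
Il6 promoter: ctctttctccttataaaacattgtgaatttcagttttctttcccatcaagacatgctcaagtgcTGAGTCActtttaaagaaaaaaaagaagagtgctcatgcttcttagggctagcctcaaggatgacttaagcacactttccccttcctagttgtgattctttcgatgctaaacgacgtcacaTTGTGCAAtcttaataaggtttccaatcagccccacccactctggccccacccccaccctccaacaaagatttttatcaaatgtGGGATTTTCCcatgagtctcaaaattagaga
Il6 64.7 kb upstream: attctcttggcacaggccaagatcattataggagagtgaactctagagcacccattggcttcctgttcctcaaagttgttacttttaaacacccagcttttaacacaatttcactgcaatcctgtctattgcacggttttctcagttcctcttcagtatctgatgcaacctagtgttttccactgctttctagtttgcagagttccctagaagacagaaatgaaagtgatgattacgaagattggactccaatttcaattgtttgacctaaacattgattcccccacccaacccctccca
Il6 132.8 kb upstream: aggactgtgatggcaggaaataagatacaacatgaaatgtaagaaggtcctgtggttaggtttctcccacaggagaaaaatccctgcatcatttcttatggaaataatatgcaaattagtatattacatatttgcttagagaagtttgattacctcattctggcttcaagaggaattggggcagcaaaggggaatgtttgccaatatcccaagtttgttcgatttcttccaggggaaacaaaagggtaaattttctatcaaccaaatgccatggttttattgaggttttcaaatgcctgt

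Elements that gained p65 lay 18.4 kb downstream of the Il10 start site (chr1:131038135-131038434, intergenic), 27.9 kb downstream of the Lif start site (chr11:4294520-4294819, intergenic), in intron 1 of Il6ra 8.0 kb from its start site (chr3:89905050-89905349) and 9.8 kb downstream of the Il10rb start site (chr16:91415856-91416155):
Il10 18.4 kb downstream: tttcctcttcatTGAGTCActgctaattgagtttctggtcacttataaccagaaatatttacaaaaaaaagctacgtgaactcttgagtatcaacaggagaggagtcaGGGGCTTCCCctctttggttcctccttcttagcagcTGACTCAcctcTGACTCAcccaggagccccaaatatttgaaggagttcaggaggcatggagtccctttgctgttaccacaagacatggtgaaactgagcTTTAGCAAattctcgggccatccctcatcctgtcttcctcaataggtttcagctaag
Lif 27.9 kb downstream: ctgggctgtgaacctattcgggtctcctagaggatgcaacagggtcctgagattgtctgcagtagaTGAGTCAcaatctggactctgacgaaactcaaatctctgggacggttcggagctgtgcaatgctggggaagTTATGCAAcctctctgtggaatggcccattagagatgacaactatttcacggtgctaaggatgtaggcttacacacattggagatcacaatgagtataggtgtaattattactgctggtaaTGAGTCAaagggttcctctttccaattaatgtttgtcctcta
Il6ra 8.0 kb downstream: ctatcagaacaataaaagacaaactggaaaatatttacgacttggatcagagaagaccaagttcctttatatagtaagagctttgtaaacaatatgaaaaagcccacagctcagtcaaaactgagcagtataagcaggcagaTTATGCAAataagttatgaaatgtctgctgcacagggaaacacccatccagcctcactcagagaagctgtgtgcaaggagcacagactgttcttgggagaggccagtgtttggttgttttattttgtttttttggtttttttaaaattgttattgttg
Il10rb 9.8 kb downstream: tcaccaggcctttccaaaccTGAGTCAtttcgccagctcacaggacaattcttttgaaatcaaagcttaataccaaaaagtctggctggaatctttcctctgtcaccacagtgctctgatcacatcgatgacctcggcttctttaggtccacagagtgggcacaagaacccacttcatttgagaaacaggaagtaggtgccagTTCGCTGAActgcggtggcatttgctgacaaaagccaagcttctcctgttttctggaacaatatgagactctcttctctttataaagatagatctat

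Elements that lost binding lay in intron 1 of Il6ra, 11 kb from its start site (chr3:89902082-89902381), and in intergenic sequence 30.6 kb (chr13:112433317-112433616) upstream of Il6st:
Il6ra 11 kb downstream: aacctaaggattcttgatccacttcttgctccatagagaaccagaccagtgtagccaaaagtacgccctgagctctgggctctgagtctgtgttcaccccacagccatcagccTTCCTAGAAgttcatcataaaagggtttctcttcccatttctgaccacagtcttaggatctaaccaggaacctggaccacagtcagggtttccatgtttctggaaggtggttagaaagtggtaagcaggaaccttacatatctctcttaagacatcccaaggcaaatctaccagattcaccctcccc
Il6st 30.6 kb upstream: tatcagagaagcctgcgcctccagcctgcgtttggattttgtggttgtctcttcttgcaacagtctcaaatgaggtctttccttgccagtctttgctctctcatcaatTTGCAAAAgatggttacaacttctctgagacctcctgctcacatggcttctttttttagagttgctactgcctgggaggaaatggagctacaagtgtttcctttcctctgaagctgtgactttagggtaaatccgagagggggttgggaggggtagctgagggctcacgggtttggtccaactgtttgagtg

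The Il6 promoter window held 1 match each to the NFκB, AP-1 and C/EBP motifs, and both distal Il6 windows held none. The Il10 window held 1 NFκB, 3 AP-1 and 1 C/EBP match, and the Lif window 2 AP-1 and 1 C/EBP match. The Il6ra window at 8.0 kb and the Il6st window held 1 C/EBP match each, the Il6ra window at 11 kb held 1 STAT match, and the Il10rb window held 1 AP-1 and 1 STAT match. Among all p65 regions, windows of the same length held an NFκB match in 8.66%, AP-1 in 24.4%, C/EBP in 20.7%, PU.1 in 10.5%, IRF in 7.53% and STAT in 10.7%. The corresponding shares of the 99 member p65 regions were 13.1%, 28.3%, 28.3%, 9.09%, 9.09% and 12.1%. A missing match says only that these letters are not in the window.

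After KLA more regions rose than fell over the cytokine genes for each of the 8 factors, most of them at Il6, Il10 and Lif and few at Osm. At the receptor genes more regions fell than rose in NCoR, PU.1, p300 and PGC1β, under each of the 3 scalings run, though for p300 by 18 to 17 with library totals. The further PGC1β libraries with DMSO did not show this. There 2 of 40 receptor gene regions rose and 0 fell with KLA, and no more fell than rose under the other scalings. Of 92 member regions in the NCoR table, 28 rose (23.4% of all regions tested rose) and 12 fell (16.7% of all). Of these, 24 of the 49 cytokine gene regions rose and 2 fell, against 4 that rose and 10 that fell of 43 at the receptor genes. The median log2 fold change of NCoR was 1.55 over the cytokine gene regions, -0.46 over the receptor gene regions and 0.10 over all regions. HDAC3 rose at 39 of 93 member regions (27.5% of all) and fell at 5 (11.3% of all), with medians of 2.08 at cytokine genes, 0.10 at receptor genes and 0.27 over all regions. p300 rose at 81 of 134 (42.1% of all) and fell at 18 (12.9% of all), and all 18 lay at receptor genes, where 17 of 55 rose. At the cytokine genes 64 of 79 p300 regions rose and 0 fell by edgeR's quasi-likelihood test.

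p65 rose at 70 of 99 member regions (57% of all) and fell at 4 (5.43% of all). The 61 p65 regions at cytokine genes had a median log2 fold change of 4.02, the 38 at receptor genes 1.25 and all regions 1.46. Fosl2 rose at 20 of 52 (11.4% of all) and fell at 1 (4.19% of all). PU.1 rose at 8 of 69 (4.53% of all) and fell at 12 (21.7% of all), and all 12 that fell were at receptor genes, whereas 7 of the 8 that rose were at cytokine genes. PGC1β rose at 23 of 65 (16.4% of all) and fell at 5 (6.35% of all). ERK1 rose at 12 of 47 (10.3% of all) and fell at 0 (2.53% of all), with 0 lower under DESeq2 as well.

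Scaling changed the balance of these counts. Under the trimmed mean of M-values (TMM), which moved the median log2 fold change of all p65 regions from 1.46 to 0.24, of p300 regions from 0.65 to 0.14 and of PU.1 regions from -0.41 to 0.00, p65 rose at 51 and fell at 12, p300 rose at 66 and fell at 25, HDAC3 rose at 38 and fell at 11, and PU.1 rose at 14 and fell at 5. At the receptor genes alone p65 rose at 18 of 38 regions and fell at 4, against 8 and 11 under TMM, and PU.1 rose at 1 of 43 and fell at 12, against 3 and 5. NCoR there kept a similar split under TMM, with 5 higher and 11 lower. DESeq2 gave 23 higher and 4 lower for Fosl2 and 63 higher and 25 lower for p300. Some counts rested on single libraries: without either Fosl2 Veh library no member region was called, without NCoR KLA replicate 1 or 2 the NCoR total of 40 became 26 or 25, and without HDAC3 Veh replicate 1 or 2 the HDAC3 total of 44 became 29 or 26. Without PGC1β Veh replicate 1 the PGC1β total of 28 became 18, and without ERK1 KLA replicate 1 or 2 the ERK1 total of 12 became 2 or 5.

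**Figure D1:**
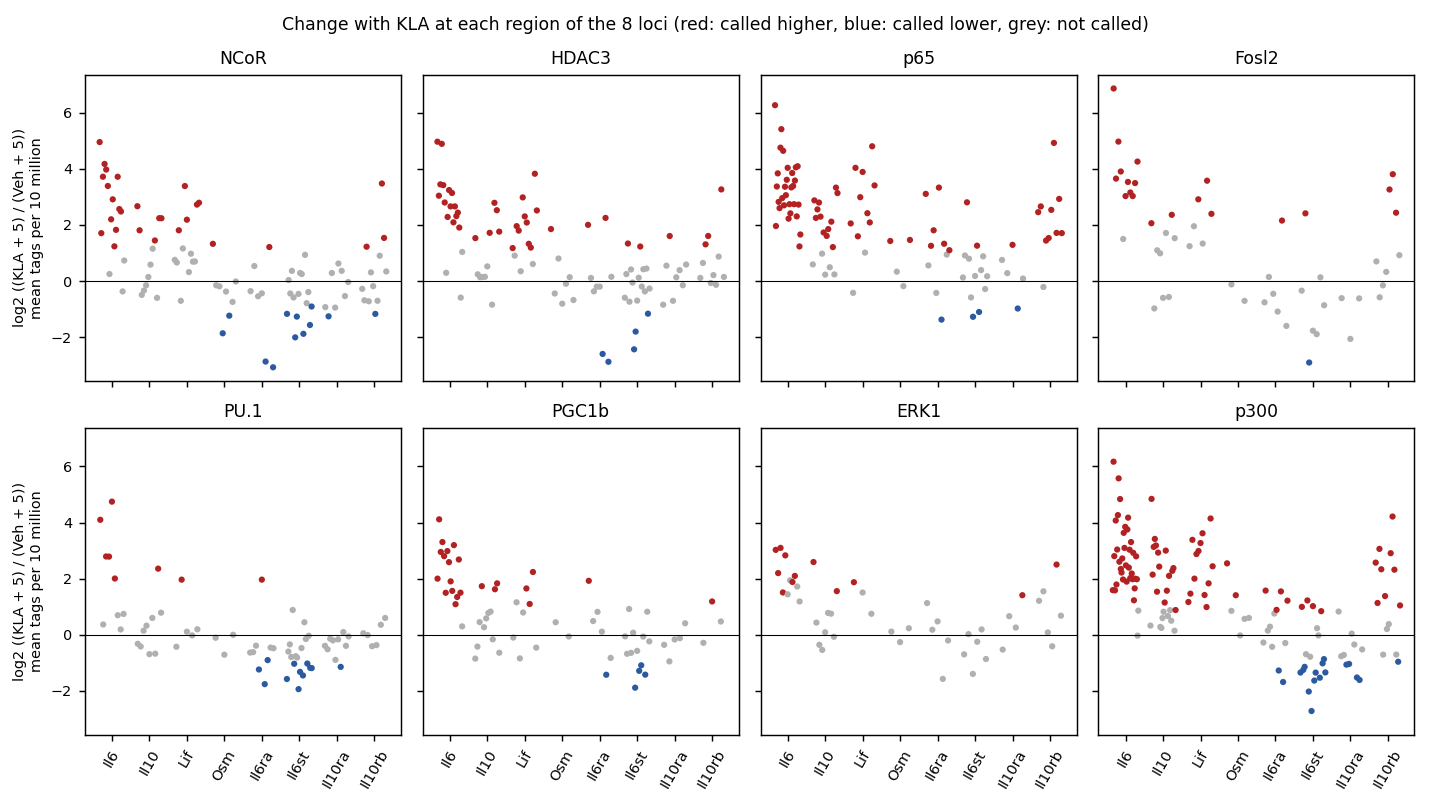
Change of each member region with KLA, as log2 of the ratio of mean tags per 10 M after adding 5 to each mean, by gene (horizontal axis) for 8 factors (panels). Red points were called higher, blue points lower and grey points neither. Most Il6 points are red in every panel, with 29 of 29 p65 regions called higher, while Il6st has blue points in the NCoR, PU.1 and p300 panels.

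Il6, the cytokine of fever and the acute phase response, gained every factor in its upstream sequence, PU.1 as far as 77.2 kb from the start site and the other 7 factors at an element 132.8 kb away. p65 rose at 29 of 29 regions, p300 at 34 of 36, PGC1β at 15 of 16, HDAC3 at 15 of 18, NCoR at 13 of 16, Fosl2 at 10 of 11, ERK1 at 7 of 11 and PU.1 at 5 of 9, and no Il6 region of these 8 tables fell by edgeR's quasi-likelihood test. The element 132.8 kb upstream was close to empty with Veh. Its p65 values were 1.75 and 0.932 with Veh and 486 and 482 with KLA, a log2 fold change of 8.38 ± 0.35 (adjusted p = 6.40e-07). NCoR was 0 in both Veh libraries and 161 and 139 with KLA, at least 84.4-fold higher against a floor of 3 tags over the Veh libraries. Both NCoR KLA libraries stood clear of that floor.

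HDAC3 at the same element was 1.45 and 0 with Veh and 162 and 186 with KLA (log2 fold change 7.90 ± 0.63), p300 was 0.627 and 0.657 with Veh and 381 and 422 with KLA (9.14 ± 0.32), and PGC1β was 0.588 and 0 with Veh and 114 and 60.1 with KLA (7.99 ± 0.71). Fosl2 was 0 in both Veh libraries and 426 and 729 with KLA, at least 320-fold higher against the same floor. In each of these factors the KLA libraries lay far above the Veh libraries. A second element, 92.6 kb upstream, was similar: NCoR was 1.19 and 4.71 with Veh and 147 and 131 with KLA, and p65 was 0 and 3.73 with Veh and 275 and 300.3 with KLA.

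The element 64.7 kb upstream stood apart, with NCoR already high there with Veh. NCoR was 464 and 557 with Veh and 648 and 569 with KLA, a difference that was not called (log2 fold change 0.25 ± 0.17, adjusted p = 0.232). HDAC3 also overlapped between treatments, at 508 and 392 with Veh and 461 and 646 with KLA. At the same element p65 went from 29.8 and 48.5 to 435 and 463 (log2 fold change 3.52 ± 0.25) and p300 from 101 and 65.7 to 337 and 347 (2.03 ± 0.18), with no overlap. PU.1 stayed under 2-fold here, at 233 and 265 with Veh and 330.4 and 315 with KLA. The element therefore carried NCoR, HDAC3 and PU.1 in both conditions, and p65 and p300 rose on it.

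PU.1 rose at Il6 elements that held almost none of it with Veh. At 40.2 kb upstream it was 0.517 and 1.24 with Veh and 149 and 157 with KLA (log2 fold change 7.37 ± 0.33), and at 77.2 kb upstream 0.517 and 0 with Veh and 83.7 and 86.7 with KLA. ERK1 at 77.2 kb was 0 in both Veh libraries and 43.0 and 32.7 with KLA, at least 18.9-fold higher against the floor, a call lost without ERK1 KLA replicate 1.

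At the Il6 promoter, NCoR was 43.0 and 58.8 with Veh and 322 and 293 with KLA (log2 fold change 2.59 ± 0.23, adjusted p = 5.13e-05). HDAC3 was 64.0 and 55.9 with Veh and 287 and 409 with KLA (2.53 ± 0.39), a call lost when either HDAC3 Veh library was left out. p300 was 15.7 and 32.9 with Veh and 206 and 228 with KLA (3.17 ± 0.25). All of these promoter values were higher in both KLA libraries than in either Veh library. p65 was 0 and 22.4 with Veh and 274 and 268 with KLA (4.62 ± 0.60), with the Veh libraries unlike each other, and DESeq2 did not call it. PGC1β was 4.11 and 5.58 with Veh and 116 and 54.9 with KLA (4.07 ± 0.47). ERK1 at the promoter missed the threshold, at 4.72 and 30.1 with Veh and 61.5 and 76.2 with KLA (adjusted p = 0.0659).

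**Figure D2:**
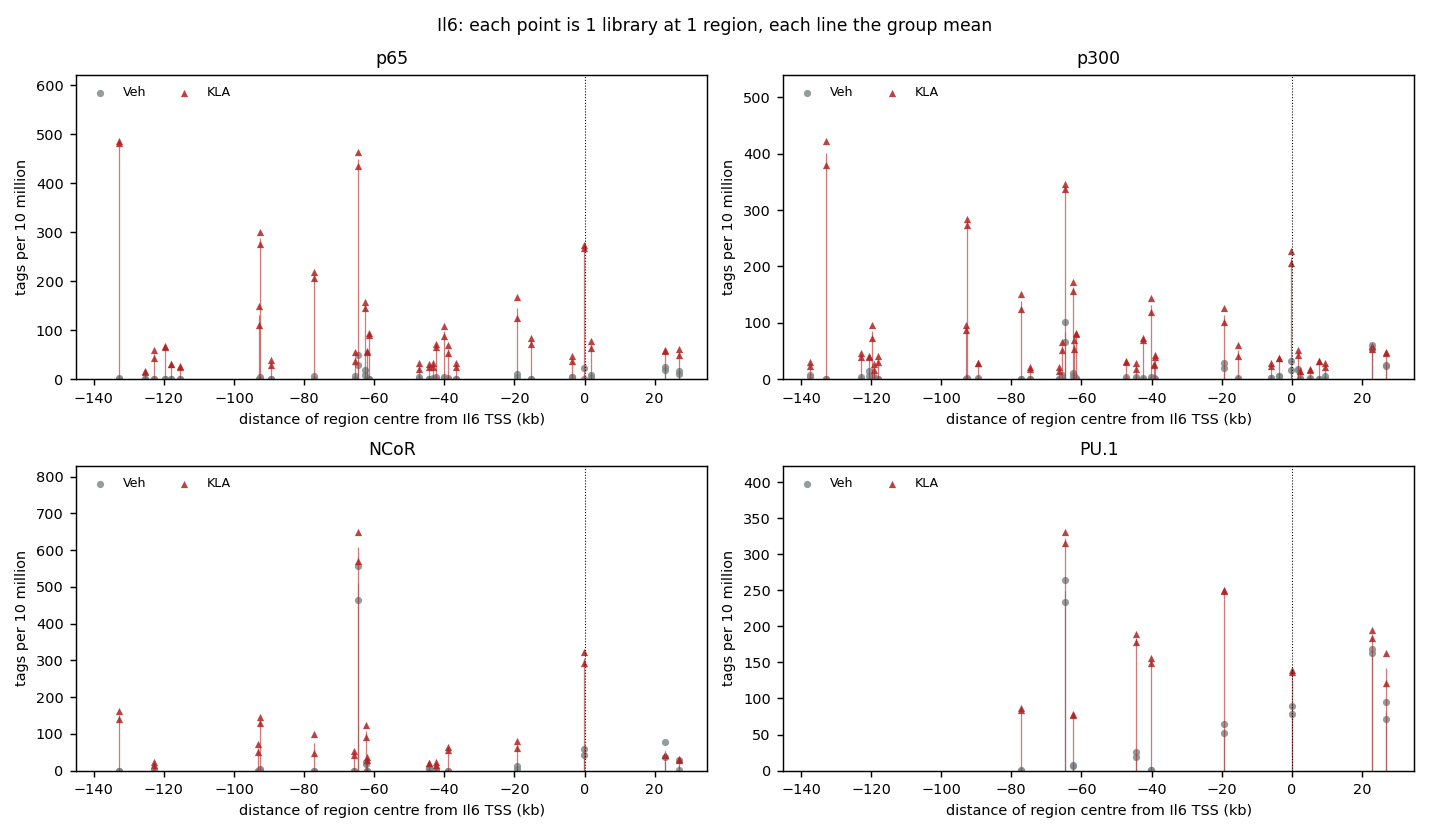
Tags per 10 M in each library (vertical axis) at every Il6 region against its distance from the Il6 start site in kb (horizontal axis), for p65, p300, NCoR and PU.1 (panels). Grey circles are Veh and red triangles KLA libraries; the NCoR region at -64.7 kb is high in both, while p65 triangles at the same place lie above 400 and circles below 50.

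Il10, the cytokine that limits macrophage activation, rose at fewer of its regions: p300 at 15 of 24, p65 at 12 of 17, NCoR at 5 of 12, HDAC3 at 5 of 11, ERK1 at 2 of 9 and PU.1 at 1 of 9. The element 18.4 kb downstream of the start site, beyond the end of the gene (chr1:131019845-131024970), was bound in both conditions. NCoR was 100.4 and 94.2 with Veh and 272 and 276 with KLA (log2 fold change 1.49 ± 0.19, adjusted p = 2.89e-04). HDAC3 was 87.3 and 103 with Veh and 257 and 395 with KLA (1.76 ± 0.38), a call lost without either HDAC3 Veh library, and p65 was 22.8 and 47.5 with Veh and 171 and 168 with KLA (2.27 ± 0.32). KLA libraries were above Veh libraries for each of these factors.

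Further out, 30.4 kb downstream, PU.1 was 13.96 and 10.6 with Veh and 83.7 and 83.5 with KLA (log2 fold change 2.74 ± 0.23) and p65 was 10.5 and 14.9 with Veh and 142 and 159 with KLA (3.56 ± 0.33). It was the single Il10 element at which PU.1 rose. Upstream, 4.3 kb from the start site, p65 was 18.4 and 22.4 with Veh and 98.2 and 142 with KLA (2.55 ± 0.34) and ERK1 was 4.72 and 4.62 with Veh and 56.6 and 50.4 with KLA. At the Il10 promoter no change was called for NCoR, at 39.4 and 54.1 with Veh and 34.8 and 37.4 with KLA, nor for p300, at 28.8 and 33.5 with Veh and 33.8 and 42.2 with KLA. p65 rose at the promoter, from 5.25 and 12.1 to 46.1 and 34.9 (2.22 ± 0.53), and at 1 of 2 other regions within 2 kb of the start site. NCoR at Il10 thus rose at distal elements, and its promoter values were not higher with KLA.

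Lif, encoding a gp130 ligand known for keeping embryonic stem cells undifferentiated, gained p300 at 13 of 13 regions, HDAC3 at 10 of 13, p65 at 9 of 11, NCoR at 5 of 13 and PGC1β at 3 of 8. Distances at Lif are those in the deposited tables, which count most of its regions from the start of a shorter transcript (chr11:4266796), 9.2 kb inside the gene, and those nearest the first start (chr11:4257568) from there. The element 27.9 kb downstream gained most factors. p65 was 7.004 and 2.8 with Veh and 153 and 162 with KLA (log2 fold change 4.96 ± 0.40), and p300 was 12.5 and 9.2 with Veh and 148 and 174 with KLA (3.87 ± 0.26). PU.1, at 26.4 and 19.9 with Veh and 119 and 91.1 with KLA (2.16 ± 0.19), and HDAC3, at 38.6 and 38.7 with Veh and 125 and 169 with KLA (1.91 ± 0.38), rose as well. NCoR was 4.78 and 25.9 with Veh and 65.6 and 67.1 with KLA (2.10 ± 0.54), with unlike Veh libraries, and leaving out either NCoR KLA library ended the call. At 69.6 kb downstream HDAC3 was 3.64 and 3.87 with Veh and 115 and 123 with KLA (4.95 ± 0.51) and p65 was 0 and 2.8 with Veh and 165 and 183 with KLA. Both factors were near 0 there with Veh and over 100 with KLA.

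Osm, which encodes a gp130 ligand made by activated myeloid cells, lies beside Lif on chromosome 11 (chr11:4236785-4241026, against chr11:4257568-4272514). It gained little: p300 and p65 each rose at 2 regions, of 6 and of 4, and HDAC3 at 1 of 7. NCoR fell at 2 of its 8 regions and rose at 1. At the Osm promoter NCoR was 115 and 151 with Veh and 25.1 and 40.8 with KLA, a log2 fold change of -1.99 ± 0.31 (adjusted p = 7.43e-04). HDAC3 there was 107 and 112 with Veh and 44.0 and 77.3 with KLA, lower by less than 2-fold (adjusted p = 0.0407). The NCoR and HDAC3 values did not overlap between treatments. At 6.7 kb upstream the direction was opposite, with NCoR at 10.8 and 14.1 with Veh and 38.9 and 38.7 with KLA and p300 at 7.52 and 2.63 with Veh and 51.7 and 56.2 with KLA (log2 fold change 3.38 ± 0.45 for p300).

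Il6ra encodes the chain that binds IL-6. Within its intron 1, loss and gain stood side by side. At 11 kb from the start site NCoR was 304 and 360.2 with Veh and 35.6 and 34.6 with KLA (log2 fold change -3.24 ± 0.22, adjusted p = 2.62e-05). HDAC3 was 319 and 264 with Veh and 39.3 and 31.6 with KLA (-3.01 ± 0.40), and PU.1 was 99.3 and 101 with Veh and 22.9 and 29.3 with KLA (-1.93 ± 0.19). All 3 factors fell, with no overlap between treatments. p65 fell there too, from 42.0 and 29.8 to 10.02 and 11.6 (-1.72 ± 0.48), a call lost without either p65 KLA library, and p300 fell from 45.8 and 36.8 to 10.2 and 8.65 (-2.12 ± 0.40).

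At 7.6 kb NCoR was 249.7 and 255 with Veh and 36.4 and 24.2 with KLA (-3.07 ± 0.25) and HDAC3 was 234 and 237 with Veh and 32.8 and 36.9 with KLA (-2.77 ± 0.40). The neighbouring region at 8.0 kb moved the other way. There NCoR was 50.2 and 38.8 with Veh and 109 and 111 with KLA (1.30 ± 0.28), p65 was 9.63 and 18.6 with Veh and 190.3 and 185 with KLA (3.73 ± 0.33), and PU.1 was 13.96 and 14.9 with Veh and 77.9 and 64.4 with KLA (2.30 ± 0.23). Thus within 1 intron NCoR, HDAC3 and PU.1 fell at 7.6 and 11 kb and rose at 8.0 kb, where HDAC3 was 33.5 and 30.4 with Veh and 114 and 228 with KLA. PU.1 at 7.6 kb was 278 and 298 with Veh and 114 and 124 with KLA, a fall that was not called under TMM and DESeq2. Closer to the start site, at 1.8 kb, p65 rose from 119 and 147 to 288 and 363 (1.29 ± 0.21) and NCoR stayed under 2-fold, at 392 and 459 with Veh and 305 and 277 with KLA. At the Il6ra promoter NCoR was 121 and 120.1 with Veh and 87.5 and 98.2 with KLA, which was not called (adjusted p = 0.201).

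Il6st encodes gp130, the signal-transducing chain shared by the IL-6 family. It was the member at which most regions fell: p300 at 11 of 19, PU.1 at 8 of 18, NCoR at 6 of 16, PGC1β at 4 of 13 and HDAC3 at 3 of 17. At 30.6 kb upstream p300 was 107 and 80.8 with Veh and 6.14 and 14.1 with KLA (log2 fold change -3.22 ± 0.35, adjusted p = 9.98e-07). NCoR was 154 and 118 with Veh and 24.3 and 35.97 with KLA (-2.16 ± 0.30), HDAC3 was 129 and 135 with Veh and 30.5 and 10.5 with KLA (-2.53 ± 0.41), and PU.1 was 85.3 and 105 with Veh and 15.05 and 27.4 with KLA (-2.15 ± 0.21). p65 fell from 84.1 and 54.1 to 24.7 and 26.7 (-1.43 ± 0.37), a call lost without either p65 KLA library. Every factor named here was lower in both KLA libraries than in either Veh library.

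Gains at Il6st were distal: at 65.7 kb upstream p65 was 10.5 and 8.39 with Veh and 108 and 84.8 with KLA (3.33 ± 0.39). The Il6st promoter lost NCoR, from 65.7 and 75.3 to 23.5 and 7.61 (-2.20 ± 0.48), a call that ended without NCoR KLA replicate 2.

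**Figure D3:**
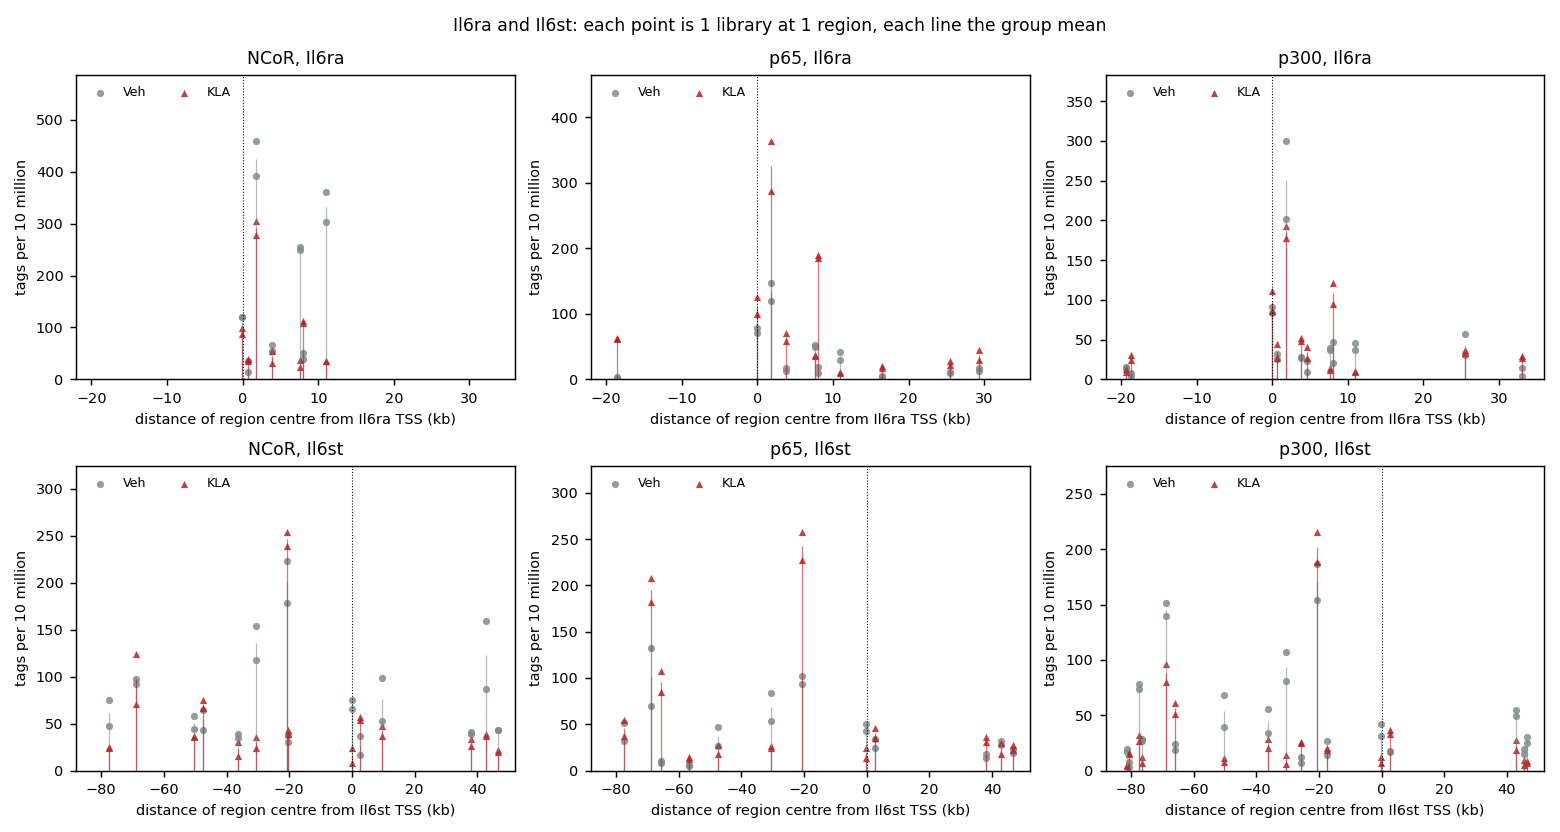
Tags per 10 M in each library (vertical axis) against distance from the start site in kb (horizontal axis) at Il6ra and Il6st (rows) for NCoR, p65 and p300 (columns); grey circles are Veh and red triangles KLA libraries. NCoR circles near 300 at 11 kb of Il6ra face triangles near 35, and p300 triangles at Il6st lie below circles at -30.6 kb.

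At Il10ra, whose product binds IL-10, p300 fell at 4 of 10 regions (12.9% of all), NCoR at 1 of 8 (16.7% of all) and PU.1 at 1 of 10 (21.7% of all). Of 5 p65 regions 1 rose (57% of all) and 1 fell (5.43% of all). HDAC3 rose at 1 of 8 (27.5% of all) and ERK1 at 1 of 4 (10.3% of all). At the Il10ra promoter p300 was 54.5 and 46.0 with Veh and 11.3 and 17.3 with KLA (log2 fold change -1.82 ± 0.36). At 11.9 kb upstream NCoR was 308 and 340.2 with Veh and 139 and 127 with KLA (-1.29 ± 0.18). Both regions were lower in each KLA library. The ERK1 region lay in intron 1, 0.95 kb from the start site, at 18.9 and 32.4 with Veh and 82.4 and 70.8 with KLA (adjusted p = 0.0439).

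Il10rb, the shared chain of the IL-10 receptor family, was the receptor gene that gained most p65 and p300. p65 rose at 9 of 10 regions (57% of all) and p300 at 9 of 14 (42.1% of all). NCoR and HDAC3 rose at 3 each, of 12 and of 10, shares near those of all regions (23.4% and 27.5%). NCoR and p300 each fell at 1 region. At 9.8 kb downstream p65 was 91.9 and 73.6 with Veh and 476 and 534 with KLA (log2 fold change 2.61 ± 0.21) and p300 was 55.2 and 52.6 with Veh and 442 and 432 with KLA (3.02 ± 0.16). At 11 kb downstream NCoR was 3.58 and 0 with Veh and 77.8 and 63.6 with KLA (5.22 ± 0.68), p65 was 2.63 and 12.1 with Veh and 383 and 358 with KLA (5.66 ± 0.38), and p300 was 3.76 and 10.5 with Veh and 233 and 209 with KLA (4.95 ± 0.29). The element at 11 kb was nearly empty with Veh, whereas the one at 9.8 kb carried p65 and p300 in both conditions. No KLA library overlapped a Veh library at either.

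Taking the elements across tables, 66 of 93 elements with a p65 region rose in p65. Of these 66, 59 also held a p300 region (48 rose), 47 an HDAC3 region (27 rose), 44 an NCoR region (25 rose and 1 fell) and 28 a PU.1 region (8 rose). Of the 26 elements at which NCoR rose, 22 held an HDAC3 region and in all 22 of those an HDAC3 region rose, beside 1 that fell. Of the 12 at which NCoR fell, 9 held an HDAC3 region, of which 4 fell and 1 rose. Counted by region, with a centre within 500 bp taken as shared, p300 rose beside 82.5% of the member p65 regions that rose and had a p300 region, against 70% over all such p65 regions of the table. The same shares were 58.8% and 50.1% for HDAC3, 58.3% and 44.5% for NCoR and 30% and 15.5% for PU.1. HDAC3 rose beside 24 of 24 member NCoR regions that rose, against 86.7% of all, and fell beside 5 of 10 that fell, against 63% of all. Joint gain of these factors was thus common over the whole tables, and these shares were not tested against each other.

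The ERK inhibitor comparison asked whether recruitment needs ERK activity, and NCoR and PGC1β gave unlike counts. In the DMSO libraries KLA raised PGC1β at 28 of 94 member regions (16.4% of all) and lowered it at 0 (1.23% of all). With the inhibitor, 0 of 94 differed from DMSO with KLA (0.286% of all were called). Unadjusted p was under 0.05 at 17 of the 94 by edgeR's quasi-likelihood test, and DESeq2 called 1. In simulated counts this PGC1β comparison recovered 23% of regions changed 3-fold, and the NCoR comparison 53.5%. The count of 0 therefore does not show that PGC1β was unchanged. NCoR fell at 52 of 102 member regions with KLA and the inhibitor against KLA alone (48.6% of all fell), with a median log2 fold change of -1.25 over members and -1.20 over all regions. TMM, which set the median of all regions to -0.04, left 3 that fell and 8 that rose, and DESeq2 5 and 10. Without NCoR KLA replicate 1 or 2 the 52 became 22 or 33. Without PGC1β DMSO Veh replicate 1 the 28 became 17. The PGC1β libraries of this comparison share a date and have DMSO controls. The NCoR inhibitor libraries carry a date different from that of the NCoR KLA libraries, whose titles name no DMSO. The inhibitor, the date and any effect of solvent therefore cannot be told apart for NCoR. The KLA libraries are shared with the comparisons against Veh.

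At the Il6 element 132.8 kb upstream, PGC1β was 2.44 and 0 with DMSO, 223 and 174 with DMSO and KLA and 250.3 and 257 with the inhibitor and KLA. NCoR there was 161 and 139 with KLA and 52.4 and 64.6 with the inhibitor (log2 fold change -1.36 ± 0.29, adjusted p = 0.00233), a call lost under TMM (-0.19) and DESeq2 (-0.17). At 92.6 kb upstream PGC1β was 3.25 and 1.46 with DMSO, 94.7 and 161 with KLA and 29.7 and 38.8 with the inhibitor, a difference between the last pair that missed the threshold (log2 fold change -1.90 ± 0.48, adjusted p = 0.0785). At 42.4 kb upstream PGC1β was 5.92 and 5.95 with KLA and 72.0 and 34.9 with the inhibitor (3.13 ± 0.89, adjusted p = 0.11), which also missed it. PGC1β in the inhibitor libraries was therefore above, near or below KLA alone at different Il6 elements, and no such difference passed the threshold.

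At Il6 39.0 kb upstream NCoR was 56.7 and 65.02 with KLA and 3.38 and 4.31 with the inhibitor (log2 fold change -3.95 ± 0.59), and at the Il6 promoter 327 and 299.5 with KLA and 108 and 96.5 with the inhibitor (-1.61 ± 0.21). Under TMM and DESeq2 the first was still called (-2.80 and -2.81) and the promoter was not (-0.45 and -0.43). At 64.7 kb upstream it was 648 and 569 with KLA and 235 and 215 with the inhibitor (-1.44 ± 0.16), a call lost under TMM and DESeq2. All inhibitor libraries were lower here than the KLA libraries. At Lif 27.9 kb downstream NCoR was 66.4 and 69.2 with KLA and 41.4 and 38.8 with the inhibitor, which was not called (adjusted p = 0.18). By gene, NCoR fell at 14 of 18 regions of Il6st, 10 of 17 of Il6, 7 of 15 of Il10, 6 of 12 of Il10rb, 5 of 8 of Il10ra, 4 of 9 of Osm, 4 of 15 of Lif and 2 of 8 of Il6ra.

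**Figure D4:**
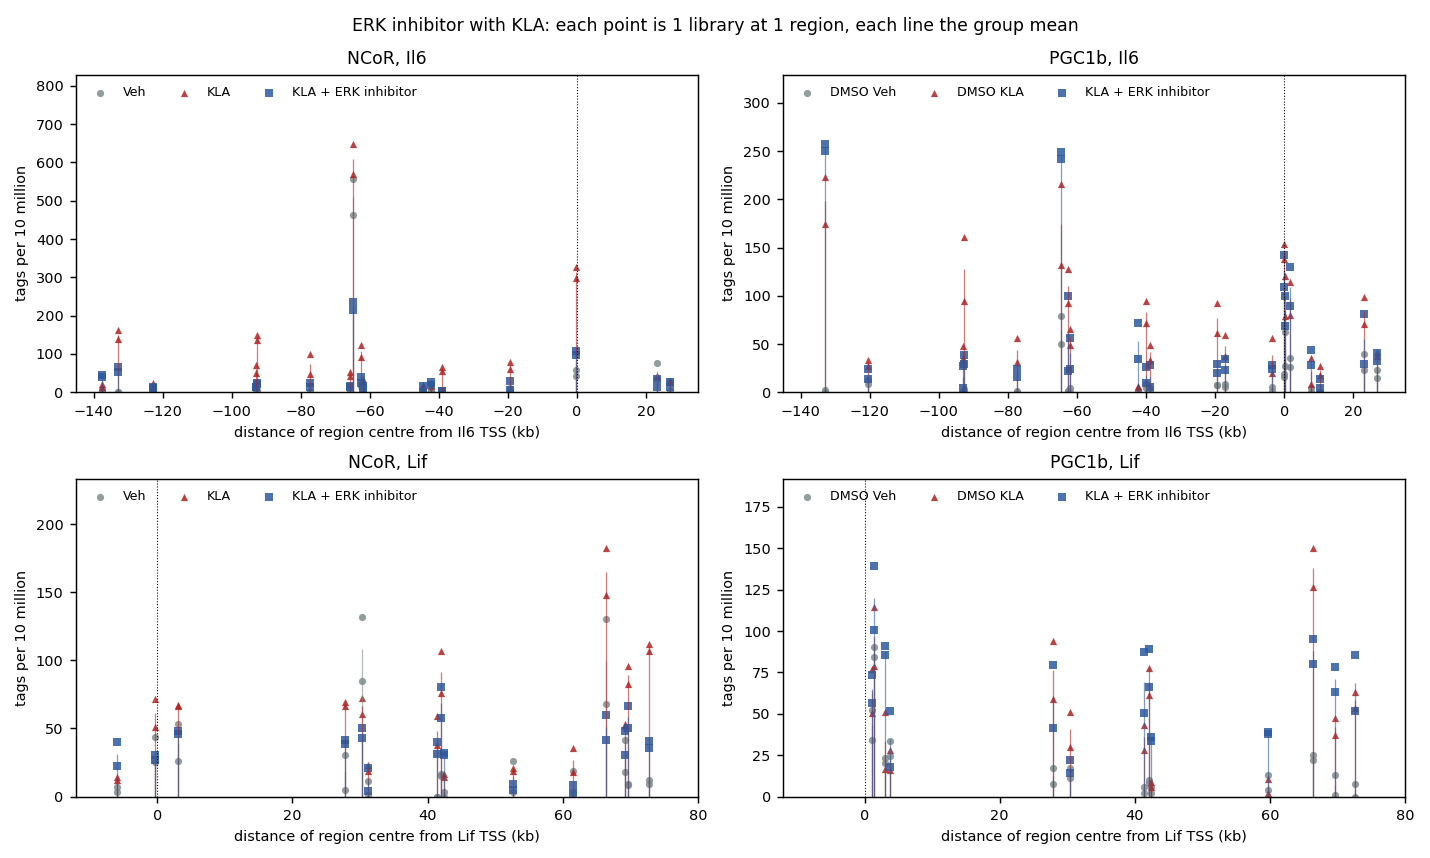
Tags per 10 M in each library (vertical axis) of NCoR and PGC1β at Il6 and Lif regions, against distance from the start site in kb (horizontal axis); grey circles are Veh, red triangles KLA and blue squares KLA with the ERK inhibitor. For NCoR the squares at Il6 -132.8 kb lie at 52.4 and 64.6, below triangles at 161 and 139, while for PGC1β the squares there lie above the triangles.

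Between day 0 and day 4 of osteoclast differentiation, p300 rose at 23 of 32 member regions (62.2% of all) with a median log2 fold change of 1.95, against 1.84 over all regions. Without day 4 replicate 1 or 2 this became 4 or 3, TMM gave 4 and DESeq2 0, and TMM lowered the median of all regions to 0.22. Among p300 regions of these libraries, 6 of 8 macrophage markers and 3 of 6 osteoclast markers (Acp5, Ctsk and Ocstamp) had a region within 2 kb of their start site. In the macrophage p300 libraries 4 of 6 osteoclast markers did, so such counts do not tell osteoclasts from macrophages. p300 at the Lif promoter was 5.27 and 0 at day 0 and 67.5 and 73.7 at day 4 (log2 fold change 4.26 ± 0.71). At Il10 2.7 kb upstream it was 7.91 and 0 at day 0 and 68.5 and 68.1 at day 4. At the Il6 element 64.7 kb upstream the values overlapped, at 26.4 and 34.1 at day 0 and 35.2 and 24.96 at day 4. For ERK1, the label of day 4 replicate 2 gives another date and replicate number than its title and, unlike those of the other 3 libraries, does not name NCoR WT cells. ERK1 changed at 2 of 23 regions (2.35% of all), and at 0 without either day 4 library, under TMM or under DESeq2. It rose at Il6ra 7.5 kb from the start site, from 0 and 3.15 to 57.6 and 32.3, and at Il6st 70.4 kb upstream it fell from 15.5 and 19.97 to 0 in both libraries, at least 8.75-fold lower.

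H3K27ac at the Il6 promoter rose with KLA in WT, NKO, DMSO-treated, Pgc1b flox/flox and LysMCre cells. In the WT and NKO table, where 17 of 24 member regions were tested, WT cells had 1 region higher (6.49% of all) and 4 lower (3.72% of all). NKO cells had 1 higher (2.75% of all) and 2 lower (7.96% of all). Leaving out single libraries lowered the WT total of 5 to 2 without either WT Veh library and to 3 without WT KLA replicate 1, and the NKO total of 3 to 1 without NKO KLA replicate 2. At the Il6 promoter WT was 1.89 and 1.02 with Veh and 34.0 and 30.3 with KLA (log2 fold change 4.43 ± 0.61), and NKO was 7.37 and 5.8 with Veh and 20.7 and 56.9 with KLA (2.54 ± 0.49). The NKO KLA libraries straddled those of WT, and the NKO call was lost without NKO KLA replicate 2. The interaction of genotype and KLA at this promoter was -1.90 ± 0.85, and it missed the threshold (adjusted p = 0.297).

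NKO and WT with Veh differed at 0 member regions (1% of all were called; 5 had an unadjusted p under 0.05, DESeq2 called 0 and TMM 1). The interaction of NKO and KLA was called at 0 (0.697% of all, 4 with an unadjusted p under 0.05, DESeq2 0). With KLA, 1 member region was higher in NKO (0.4% of all), and none was without NKO KLA replicate 1 or WT KLA replicate 2.

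RGFP966 tests whether HDAC3 activity is needed for the mark. In 1000 bp windows, DMSO with KLA had 2 of 18 member regions higher (6.73% of all) and 4 lower (28.1% of all) than DMSO with Veh, or 3 and 1 under TMM. RGFP966 with KLA had 5 higher (26.9% of all) and 0 lower (9.53% of all) than DMSO with KLA, and all 5 were distal. TMM gave 4 higher and 3 lower and DESeq2 4 and 2. The regions called lower were the Il6 and Il10ra promoters in both, and a window 9.3 kb downstream of the Il10rb start site under TMM.

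H3K27ac at the Il6 promoter was 13.3 and 18.3 with DMSO, 247 and 237 with DMSO and KLA (log2 fold change 3.93 ± 0.29) and 121 and 127 with RGFP966, a difference of -0.97 ± 0.21 from KLA (adjusted p = 2.94e-05) just under 2-fold, and over it under TMM (-1.31) and DESeq2 (-1.27). The Il6 element 64.8 kb upstream did not follow it, at 133 and 80.8 with KLA and 138 and 109.7 with RGFP966. An Il6 element 22964 bp downstream had 63.95 and 69.8 with DMSO, 34.3 and 31.98 with KLA and 82.9 and 85.4 with RGFP966. It rose with RGFP966 (log2 difference 1.34 ± 0.27) and fell with KLA in DMSO-treated (-1.01), Pgc1b flox/flox (-1.32) and LysMCre cells (-1.07). Under TMM and DESeq2 none of these falls was called. Il10 elements 18.5 and 23.1 kb downstream rose with RGFP966, from 52.5 and 39.6 to 114 and 96.2 and from 16.8 and 19.4 to 52 and 49.5, the first of which was under 2-fold under TMM (0.84) and DESeq2 (0.88). At promoters, other log2 differences with adjusted p under 0.05 but under 2-fold were -0.77 at Il10ra (-1.12 under TMM and -1.08 under DESeq2), -0.61 at Il10rb and -0.52 at Il6st. Outside promoters such differences went both ways. They were -0.67 at Il10rb 9.3 kb downstream, 0.83 at Il6ra 1.8 kb and 0.54 at Il10 1.3 kb from the start site, and 0.49 in a distal Il6st window. With RGFP966 the promoters of Il6, Il10ra, Il10rb and Il6st thus had lower values, past 2-fold at Il6 and Il10ra under the other scalings alone. The Il6ra promoter had like values, at 182 and 166 with KLA and 176 and 177 with RGFP966. Of 11 distal member windows 5 rose, and of 7 within 2 kb of a start site 0 rose. The share over all member windows (5 of 18) was close to that of all windows (26.9%), and distal windows were not compared with distal windows of other genes.

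The Pgc1b design asked whether the mark depends on PGC1β. Pgc1b flox/flox cells had 2 of 18 regions higher (5.22% of all) and 2 lower (25.6% of all) with KLA, or 3 and 1 under TMM. Cells with LysMCre had 2 higher (4.18% of all) and 6 lower (32.5% of all), or 2 and 2 under TMM. With Veh the genotypes differed at 0 regions (0.397% of all, 2 with an unadjusted p under 0.05, DESeq2 0). With KLA 5 were lower in LysMCre cells (6.81% of all), and 3 without the LysMCre KLA replicate 2. TMM and DESeq2 each kept 1 of the 5, in Il10 1.3 kb from the start site (log2 difference -1.07 in both). The log2 difference at the Il6ra promoter, -1.37, became -0.98 in both, under 2-fold, and that of the Il6ra window at 1.8 kb, -1.12, became -0.72 and -0.73. The interaction was called at 3 (4.6% of all), 2 under TMM. At the Il6ra promoter H3K27ac was 240.1 and 265 in flox cells with Veh, 241 and 242 with KLA, 268 and 249 in LysMCre cells with Veh and 105 and 82.7 with KLA. Only the LysMCre libraries with KLA were low, and the interaction was -1.41 ± 0.17 (adjusted p = 3.14e-14).

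The neighbouring Il6ra window at 1.8 kb showed the same order, with 181 and 209 with Veh and 162 and 189 with KLA in flox cells, and 229 and 196 with Veh and 78.0 and 83.4 with KLA in LysMCre cells (interaction -1.25 ± 0.19). Under TMM the interactions were -1.22 and -1.06 and were still called. At the Il6 promoter the values were 15.1 and 16.6 with Veh and 198 and 214 with KLA in flox cells and 20.6 and 15.9 with Veh and 116 and 139 with KLA in LysMCre cells. With KLA the LysMCre libraries were lower by -0.69 ± 0.16 (adjusted p = 9.66e-05), under 2-fold, and the interaction of -0.90 missed the threshold (adjusted p = 0.0565). In intron 1.3 kb from the Il10 start site they were 62.3 and 74.1 with Veh and 50.8 and 81.3 with KLA in flox cells and 45.5 and 59.0 with Veh and 19.5 and 28.0 with KLA in LysMCre cells (interaction -1.08 ± 0.35, adjusted p = 0.0133), a call lost under TMM and DESeq2. A fall with KLA at this element was not limited to LysMCre cells. A narrower region of it fell in WT (log2 fold change -1.27 ± 0.41) and NKO cells (-1.03 ± 0.36). With DMSO no change with KLA was called in the window (0.28 ± 0.26). Lif and Osm had no region in the RGFP966 and Pgc1b tables.

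**Figure D5:**
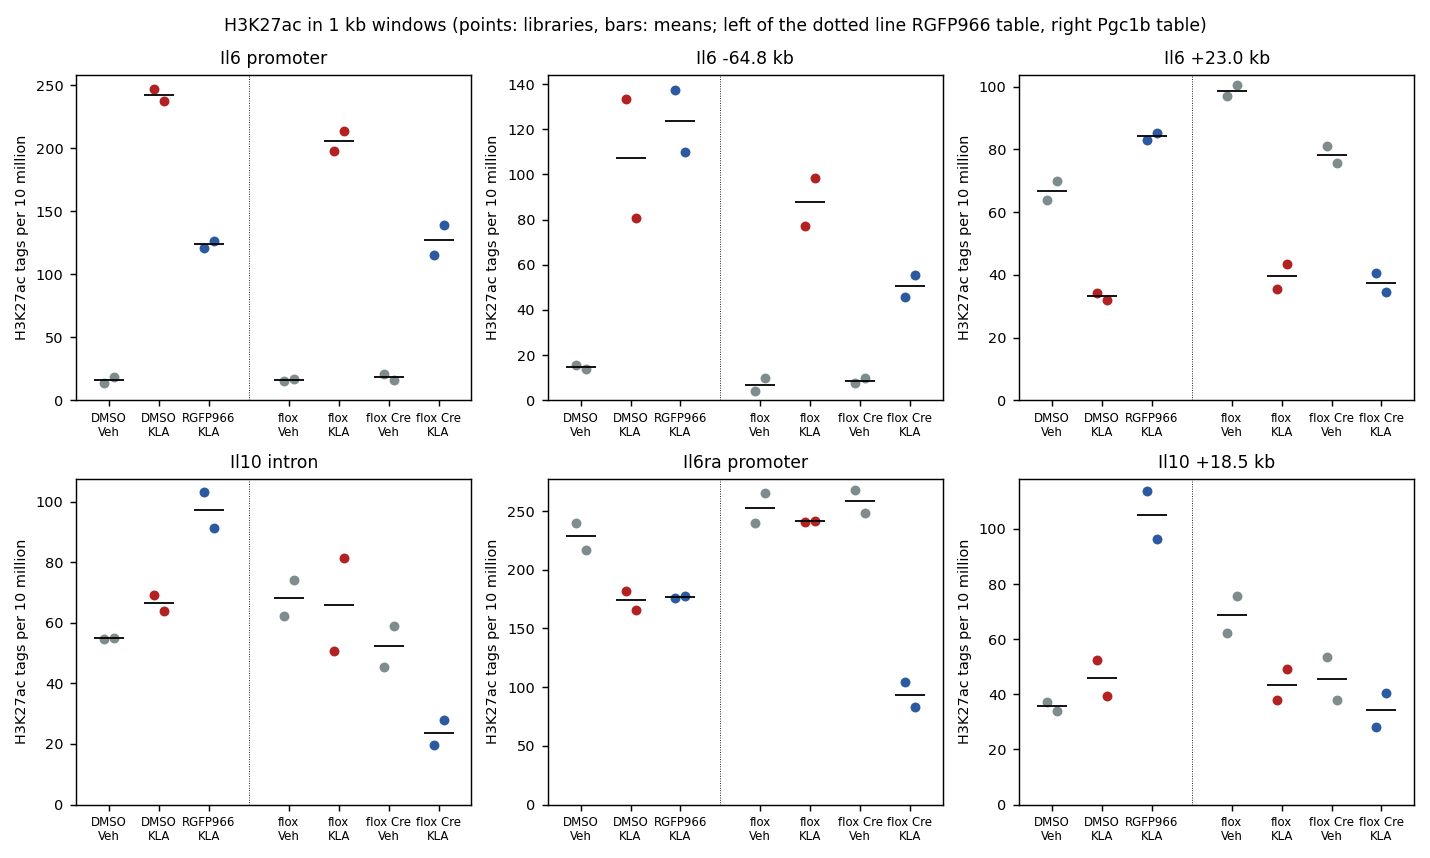
H3K27ac tags per 10 M in each library (vertical axis) at 6 windows (panels) in 7 groups (horizontal axis), the 3 groups of the RGFP966 table on the left and the 4 of the Pgc1b table on the right. Each point is a library (grey Veh, red KLA, blue KLA with RGFP966 or in LysMCre cells) and each bar a mean; at the Il6ra promoter the LysMCre KLA libraries lie at 105 and 82.7 and the other Pgc1b libraries above 200.

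Among 39 other genes of these pathways (ligands, receptors, kinases and STATs, feedback inhibitors and response genes), counts were made of those with a region that changed. NCoR rose at 1 or more regions of 21 of the 32 genes with a region (43.1% of all genes with a region) and fell at 12 (35.5%). p65 rose at 29 of 32 (67%) and fell at 5 (17.5%), p300 rose at 30 of 33 (59.2%) and fell at 13 (34.1%), and PU.1 rose at 12 of 33 (11.4%) and fell at 6 (38.2%). By region, NCoR rose at 90 of 252 against 23.4% of all regions, p65 at 171 of 226 against 57%, p300 at 169 of 311 against 42.1% and PU.1 at 16 of 196 against 4.53%. The ligands at which NCoR rose were Clcf1, Ebi3 and Il27, the last 2 encoding the subunits of IL-27. With the ERK inhibitor NCoR fell at 25 of 32 genes (69.9% of all genes), or 77 of 268 regions against 48.6% of all, and rose at 6 (2.61% of all genes). PGC1β changed at 0 of 33 with the inhibitor, where few of all genes did (0.339% with a higher and 0.649% with a lower region). H3K27ac was lower in LysMCre than in Pgc1b flox/flox cells with KLA at 5 of 27 (10.8% of all genes). By region this was 6 of 76 (7.89%), near the 6.81% of all regions.

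The genes most like each member in their summed tags over 40 libraries were found among 6071 genes with a region in all 9 tables, by the root mean square difference of centred log2 tags, as a description. For Il6 this was Ptgs2os2, beside the prostaglandin synthase gene Ptgs2, at 0.389 (Pearson's r 0.968), for Il10 Egr2 at 0.208, for Lif Irak3 at 0.227 followed by Socs3, the feedback inhibitor of gp130 signaling, at 0.239, and for Osm 1700027F09Rik at 0.181. For the receptor genes these were Adipor1 at 0.162 for Il6ra, Afdn at 0.200 for Il6st, Rb1 at 0.244 for Il10ra and Rftn1 at 0.137 for Il10rb. The nearest gene to Il6 was farther from it than that of any other member, and all points share libraries and their depth.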

How the data were processed

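ChIP-seq tag counts from mouse BMDMs and bone marrow cells were analysed for 70 libraries in 15 tables, while 30 input samples without columns were not analysed here. Per the study's methods, the authors aligned reads to mm10 with Bowtie2, called HOMER peaks, kept those reproducible between replicates, merged them over conditions and counted tags with annotatePeaks.pl, with at most 3 tags per position. The deposited values are raw tag counts per region. H3K27ac was counted over open chromatin peaks in the WT and NKO table and in 1000 bp windows in the other tables. Factors were crosslinked with DSG and formaldehyde and H3K27ac with formaldehyde alone. Aligner and HOMER versions are not given in the sources used here. A cap on tags per position lowers the highest counts, and merged peaks cover only sites that passed in 1 condition or more.

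The 8 genes, the lists and the named elements were chosen with earlier results of these data known. Named elements were, for each gene, the promoter element and the distal elements with regions in the most tables, plus the called member region of lowest p in each direction, and other regions were named after their values were seen. 1 element is not reported here and is left out of the plots by distance and by window. Library totals from the file headers scaled tags to 10 M. Regions with at least 4 tags (factors) or 16 tags (H3K27ac) in at least 1 library were fitted per table with edgeR 4.0.16 (R 4.3.3, limma 3.58.1), using glmQLFTest and Benjamini-Hochberg adjustment over the whole table, with header totals as library sizes. The script was tested on simulated counts with 200 regions changed 3-fold, of which 2% to 100% were recovered across comparisons. Alternatives were TMM scaling, DESeq2 1.42.0, no filter on low counts, a replicate block and leaving out each library, which leaves 1 sample whose spread is assumed to be that of the other groups. Replicates differed by more than counting noise (smallest chi-square per region 1.36), so none was merged. Distances to start sites were checked against RefSeq annotation of mm10 for all 962 regions, from which the sequences also came (Python 3.11.15, pandas 2.3.3).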

Additional observations from a re-analysis of the deposited data

Results flagged for a closer look

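The KLA response of H3K27ac differed between Pgc1b flox/flox, LysMCre and Pgc1b flox/flox cells at 3 member windows, by edgeR's quasi-likelihood test of the interaction with Benjamini-Hochberg adjustment. At the Il6ra promoter the difference was -1.41 (log2), at Il6ra 1.8 kb from the start site it was -1.25, and in Il10 1.3 kb from the start site it was -1.08. LysMCre cells had the lower response in each case, and both LysMCre KLA libraries lay below both flox/flox KLA libraries. The Il10 call was lost under TMM and DESeq2, while those at Il6ra were still called under TMM. The genotype differences with KLA at both Il6ra windows were under 2-fold with TMM and DESeq2. Such a lower response was called at 4.6% of all windows.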

How the results depend on the processing

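Same-numbered replicates of different groups did not deviate together (31 correlations, -0.0266 to 0.0255), so samples were not treated as paired. Such correlations do not show whether same-numbered libraries shared an animal or a preparation. With the replicate number as a block, Fosl2 calls became 10 and p300 day 4 calls 13, and the other counts of member regions stayed within 1.5 times.

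Leaving out 1 library gave 25 to 51 called member regions for NCoR, 26 to 48 for HDAC3, 0 to 31 for Fosl2, 18 to 35 for PGC1β, 2 to 11 for ERK1, 17 to 27 for PGC1β with DMSO, 22 to 48 for NCoR with the ERK inhibitor, 0 to 2 for ERK1 at day 4 and 3 to 26 for p300 at day 4. For H3K27ac the ranges were 2 to 4 in WT, 1 to 3 in NKO, 0 to 1 for NKO against WT with KLA and 3 to 6 for LysMCre against Pgc1b flox/flox with KLA.

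TMM gave 11 calls for NCoR with the ERK inhibitor, 4 for p300 at day 4, 0 for ERK1 at day 4, 1 for NKO against WT with Veh, 4 for LysMCre KLA and 1 for LysMCre against Pgc1b flox/flox with KLA. DESeq2 gave 15, 0 and 0 for the first 3, 1 for PGC1β with the ERK inhibitor, 4 for LysMCre KLA and 1 for LysMCre against Pgc1b flox/flox with KLA. Without the filter on low counts, NKO against WT gave 1 with Veh and 2 with KLA. The cause of these shifts was not tested.

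Signs turned only under TMM or DESeq2, in regions named above or by the rule. For p65 the values were -1.03 (Il6st, TMM) and -1.13 and -1.10 (Il10ra, TMM and DESeq2). For NCoR with the ERK inhibitor they were 0.0588 and 0.0724 at Lif, 1.01 at Il10rb 8.0 kb upstream (DESeq2), 0.16 and 0.17 at Il10rb 9.3 kb downstream, 0.15 and 0.16 at Il6ra, and 0.0733 and 0.0863 at Il10ra. For p300 at day 4 they were -0.0524 at Il10rb (TMM) and -0.35 and -0.28 at Il6ra. Among the named regions the calls of 43 were lost and of 23 gained under TMM, 48 and 22 under DESeq2, and 128 and 47 over all fits that left out 1 library. Depth from 4.30 M tags limits what could be detected at regions with few tags.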
